A study of Mus musculus with 6 samples.

Results

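The 9 genes described here are the liver X receptors Nr1h3 (LXRα) and Nr1h2 (LXRβ), their target genes Abca1, Abcg1, Mylip, Pltp and Apoe, and the apolipoprotein genes Apoc1 and Apoc2, which lie beside Apoe. They were taken by gene symbol, as 9 of the 57180 genes in the count table of a study of CD36 on hepatic natural killer (NK) cells. The study compared CD36+ NK with CD36- NK, cells of the CD3- NK1.1+ gate that were sorted by CD36, a scavenger receptor that takes up fatty acids and oxidized lipoproteins. Both groups came from livers of male wild-type C57BL/6J mice of 6 to 8 weeks with CCl4-induced fibrosis, which had received 2.5 ml/kg of 20% CCl4 in olive oil by intraperitoneal injection, 2 times a week for 4 weeks, and were killed 48 h after the final dose. All 6 libraries, 3 a group, carry this treatment, and NK cells of mice given oil alone were not analysed here. The titles number the samples and the design text calls them biological triplicates, but whether each came from 1 mouse or from pooled mice is not stated in the sources used here.

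The liver X receptors are nuclear receptors that bind oxysterols, the oxidized forms of cholesterol, and act as dimers with a retinoid X receptor on pairs of hexamers of the AGGTCA type. When a cell holds excess cholesterol they switch on genes that move it out of the cell onto lipoproteins, that remodel those lipoproteins, and that limit the uptake of more. In macrophages, the cells in which this program is best known, Apoe, Apoc1, Apoc2 and Pltp are LXR targets together with the transporters Abca1 and Abcg1.

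The groups differed in cell markers as well as in the 9 genes, and their part in the results was not tested. The library totals lay between 10292480 and 13787189 counts. Cd36 was at 1232, 3569 and 2859 counts in CD36+ NK and at 186, 359 and 175 in CD36- NK. NK cell genes were present in every library, but their summed level was 913 to 1102 CPM in CD36+ NK against 4885 to 6235 in CD36- NK (CPM, counts scaled by library size and edgeR's TMM factors), and 10 of 10 were lower DEGs, genes that passed the test (adjusted p below 0.05) and differed more than 2-fold. Macrophage and Kupffer cell genes summed to 2527, 3783 and 5905 CPM over the CD36+ NK libraries but to 675, 1516 and 442 over the CD36- NK libraries. Of the 10 tested, 6 were higher DEGs, 7 without CD36+ NK replicate 1 and 0 without CD36+ NK replicate 2 (all 10 had an unadjusted p below 0.05 in edgeR with all libraries, and DESeq2 called 9). Clec4f, which marks Kupffer cells, the resident macrophages of the liver, had 17, 624 and 0 counts in CD36+ NK and 0 in each CD36- NK library, so that CD36+ NK replicate 2 stood apart in it. T cell genes stood apart in CD36+ NK replicate 1, at 214 CPM in sum against 20.8 to 43.4 in the other libraries. Hepatocyte genes were near 0 in all libraries, at 0.0884 to 13.8 CPM in sum, with Cps1 at 0 throughout.

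Of the 9 genes, all passed the filter on low counts and 4 were higher DEGs in CD36+ NK, namely Apoe, Apoc1, Apoc2 and Pltp, beside 2.98% of the 14761 tested genes. In either direction the background was 5.96%. None of the 9 was a lower DEG in edgeR or DESeq2, beside 2.98% of all tested genes, and 1, Mylip, was lower at an unadjusted p below 0.05, beside 12.1% of all tested genes. At an adjusted p below 0.05 and any fold, 4 members were higher and 1 lower, beside 5.07% and 5.44% of all tested genes. Leaving out CD36+ NK replicate 1 gave 5 higher DEGs among the 9, with Nr1h3 added, beside 3.73% of all genes tested in that fit. Leaving out CD36+ NK replicate 2 gave 2, Apoc2 and Pltp, beside 0.806%. In 6 of the 9 every CD36+ NK library lay above every CD36- NK library, as in 17.0% of all tested genes, and in 1 gene, Mylip, every CD36+ NK library lay below, as in 15.7%. The median log2 fold change of the 9 genes was 1.52, beside 0.01 over all tested genes. The apolipoproteins, Pltp and Nr1h3 lay far from the cholesterol transporters, Nr1h2 and Mylip, as the plot of fold changes shows. In bulk RNA of sorted cells, fewer cells of a type and less RNA per cell cannot be told apart.

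The libraries carry names of 2 forms, in which replicate 1 of each group has its number first and the other 4 libraries have it last. Within the first form, with 1 library a group and so no test, the difference in log2(CPM + 2) between the groups was 1.52 for Apoe, 0.55 for Apoc1, 1.70 for Apoc2, 1.08 for Pltp, 2.07 for Nr1h3 and 0.01 for Abcg1. Within the second form it was 2.45, 1.52, 2.42, 1.65, 2.43 and 0.53. The 4 DEGs and Nr1h3 were thus higher in CD36+ NK within both forms, by less in the first. In the 4 libraries of the second form Pltp alone of the 9 was a DEG, beside 106 higher DEGs among 14848 tested genes. In that fit Apoe, Apoc1 and Apoc2 had log2FC 2.34, 2.78 and 2.51 (edgeR adjusted p = 0.0562, 0.0674 and 0.0721). With the form of the name as a block in the fit of all 6 libraries, 5 of the 9 were higher DEGs, the 4 and Nr1h3 (log2FC 2.41, edgeR adjusted p = 0.0346), beside 3.22% of all tested genes.

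**Figure D1:**
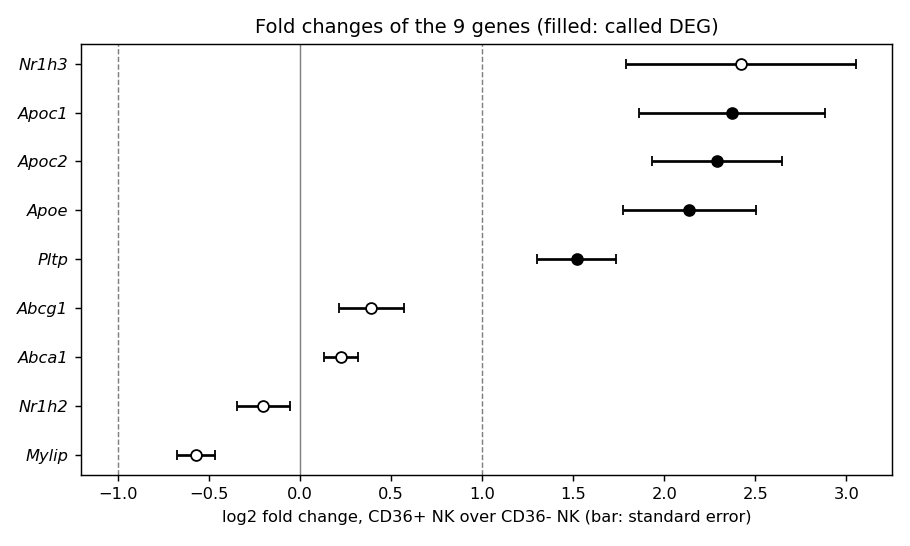
Log2 fold change (CD36+ NK over CD36- NK, horizontal axis) of the 9 genes from edgeR's fit, with bars of 1 standard error. Filled points are DEGs, and dashed lines mark a fold change of 2 in either direction. Nr1h3, Apoc1, Apoc2, Apoe and Pltp lie between 1.52 and 2.42, and the other 4 genes between -0.57 and 0.39.

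The promoters of the members were searched for the letters of LXR binding sites, since members with and without a difference between the groups can then be read beside their sequence. RefSeq promoters (GRCm38.p6, 250 bases before and 50 after a transcription start) matched 7 of the 9 members by symbol, with 10 promoters in all; Abcg1 and Apoc1 had none. Both strands were searched for a direct repeat with a spacer, written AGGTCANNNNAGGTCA, for a looser form of it, NGGTNANNNNNGGTNA, and for the hexamer AGGTCA alone, which is part of the first. The exact repeat was in 0.0152% of all 32851 promoters and in none of the members. The looser repeat was in 0.718% of all promoters and, among the members, in that of Abca1 alone, from base -67 with the first transcribed base as 1. The hexamer was in 16.3% of all promoters and, among the members, in that of Apoc2 alone, at -115 and 43. Abca1 (chr4:53159846-53160145) and Apoc2 (chr7:19677892-19678191) are printed 5′ to 3′ on their minus strand with these matches in capitals, since they are the members that held one, and Apoe (chr7:19699139-19699438, minus strand), the member with the highest level, is printed beside them with its first transcribed base in capitals, since it held none in any of its 3 promoters.
Abca1: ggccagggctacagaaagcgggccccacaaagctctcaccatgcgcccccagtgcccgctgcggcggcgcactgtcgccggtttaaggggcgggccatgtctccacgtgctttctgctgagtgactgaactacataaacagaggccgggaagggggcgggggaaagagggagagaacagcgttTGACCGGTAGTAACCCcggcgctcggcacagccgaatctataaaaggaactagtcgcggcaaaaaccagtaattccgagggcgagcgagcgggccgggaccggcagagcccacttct
Apoc2: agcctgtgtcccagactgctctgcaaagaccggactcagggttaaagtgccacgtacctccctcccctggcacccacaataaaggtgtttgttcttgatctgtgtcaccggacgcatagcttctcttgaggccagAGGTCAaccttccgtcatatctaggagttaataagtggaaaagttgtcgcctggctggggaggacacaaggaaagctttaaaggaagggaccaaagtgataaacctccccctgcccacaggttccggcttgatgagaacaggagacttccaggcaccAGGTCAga
Apoe: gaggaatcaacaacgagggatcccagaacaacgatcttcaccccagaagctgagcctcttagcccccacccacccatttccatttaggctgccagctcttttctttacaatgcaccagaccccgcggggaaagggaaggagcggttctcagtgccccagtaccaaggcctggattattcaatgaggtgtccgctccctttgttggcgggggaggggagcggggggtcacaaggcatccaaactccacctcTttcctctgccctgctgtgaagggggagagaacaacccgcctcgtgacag
The Abca1 match reads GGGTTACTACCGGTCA on the strand opposite to the gene. The member with the repeat, Abca1, was no DEG, and the higher DEGs Apoe and Pltp had none of the letters searched in these windows. A match is not evidence of binding, and these windows do not hold more distant elements.

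The apolipoprotein E gene, Apoe (ENSMUSG00000002985), encodes the ligand by which lipoprotein remnants bind receptors on hepatocytes and which accepts cholesterol leaving macrophages. Its position in the count table, whose genome build is not named, is chromosome 7, 19430034 to 19433113, minus strand. It had the highest mean level of the 9 genes per length, at 164, 290.2 and 324 FPKM (fragments scaled by gene length and library total) in CD36+ NK and at 56.9, 88.3 and 38.4 in CD36- NK. By FPKM it ranked 306, 156 and 136 among all genes of the table in CD36+ NK, and 811, 494 and 1107 in CD36- NK. The groups did not overlap. The lowest CD36+ NK library was replicate 1 and the highest CD36- NK library was replicate 2, the libraries that were also lowest and highest of their groups in summed macrophage genes.

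In normalized counts Apoe had a mean of 1727 ± 596 CPM over the CD36+ NK libraries against 392.0 ± 155 over the CD36- NK libraries (SD, n = 3 each). This 4.40-fold difference, written below as its log2 value (log2FC), was 2.14 ± 0.364 (SE, edgeR quasi-likelihood test, Benjamini-Hochberg adjusted p = 0.0146). The call rested in part on single libraries. Apoe missed the threshold without CD36+ NK replicate 2 (log2FC 2.06, edgeR adjusted p = 0.0564), the library with Clec4f, and without CD36- NK replicate 1 (2.07, edgeR adjusted p = 0.0668). Without CD36+ NK replicate 1, the library with T cell genes, the log2 fold change was 2.38 (edgeR adjusted p = 0.00814).

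**Figure D2:**
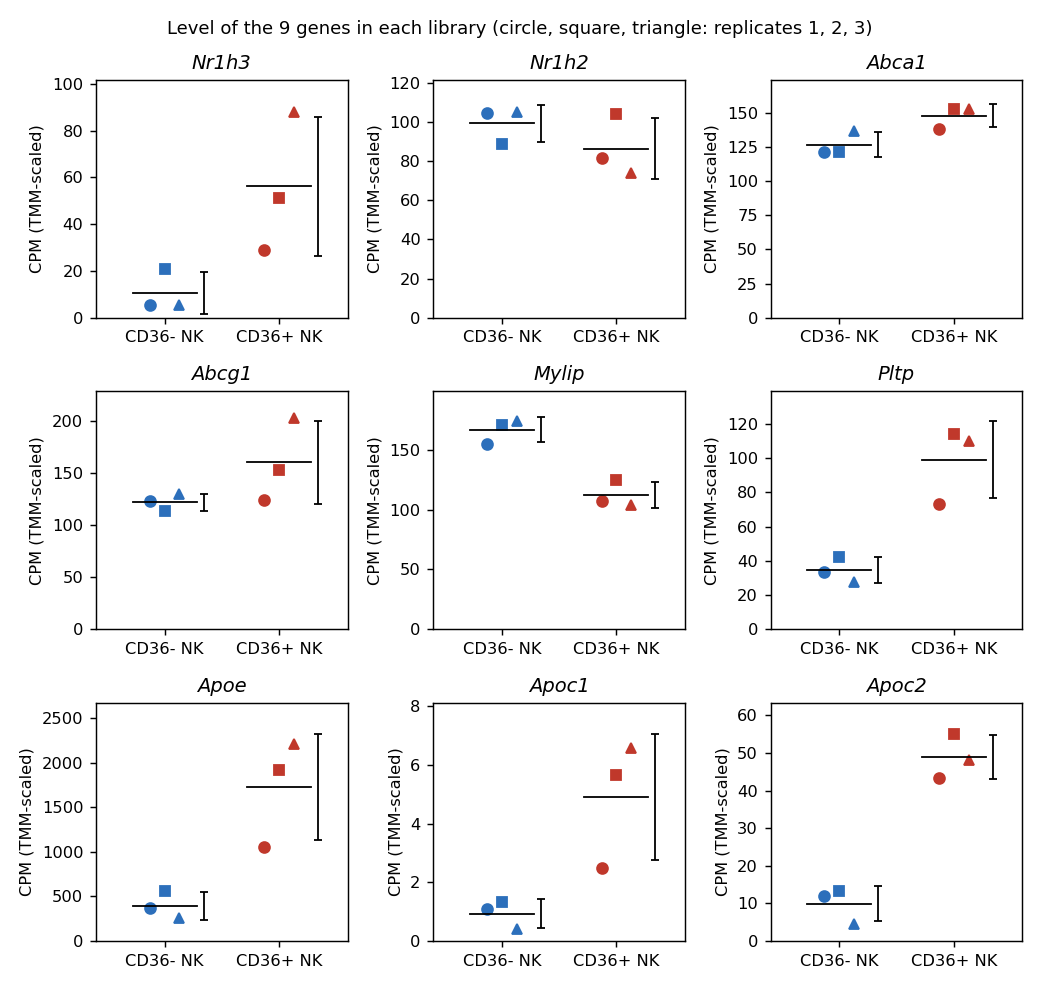
Level of each of the 9 genes in CPM scaled by TMM (vertical axis, from 0) in the 3 CD36- NK (blue) and 3 CD36+ NK (red) libraries. Horizontal lines are group means, the bars beside them 1 SD, and circles, squares and triangles are replicates 1, 2 and 3. The groups lie apart in Nr1h3, Abca1, Mylip, Pltp, Apoe, Apoc1 and Apoc2 and overlap in Nr1h2 and Abcg1.

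Apoc1 (ENSMUSG00000040564, chromosome 7 from 19423406 to 19426585) encodes a small apolipoprotein that slows the clearance of lipoproteins. It had the lowest FPKM of the 9 genes, with 28, 77 and 79 counts in CD36+ NK and 14, 15 and 4 counts in CD36- NK. The groups did not overlap, though CD36+ NK replicate 1 had 2.49 CPM beside 1.33 in the nearest CD36- NK library. The means were 4.91 ± 2.14 CPM (SD, n = 3) and 0.931 ± 0.484, log2FC 2.37 ± 0.512 (SE, edgeR adjusted p = 0.0316). Of the 4 calls, that of Apoc1 was lost in the most alternative fits, 6 of 16. It missed the threshold without CD36+ NK replicate 2 or 3 (edgeR adjusted p = 0.1001 and 0.104), without CD36- NK replicate 1 or 3 (0.0984 and 0.0826) and when the replicate number entered as a block (0.0770), with log2FC from 2.02 to 2.47 in these 5 fits.

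Apoc2 (ENSMUSG00000002992, chromosome 7 from 19405504 to 19411866) encodes the cofactor that lipoprotein lipase needs to cut triglycerides. It had 488, 748 and 580 counts in CD36+ NK and 156, 151 and 46 in CD36- NK. Its CD36+ NK libraries lay close together, at 43.4, 55.03 and 48.2 CPM, and far above the 11.99, 13.4 and 4.49 CPM of CD36- NK. The log2 fold change was 2.29 (standard error 0.356, edgeR adjusted p = 0.0109), and Apoc2 was a DEG in each of the 6 fits that left out 1 library. The predicted gene Gm44805 covers 6358 of its bases on the same strand, so fragments could be shared between them, but Gm44805 had at most 12 counts in a library.

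Apoe, Apoc1 and Apoc2 lie within 27610 bases on 1 strand, and the tested genes around them were no DEGs. Tomm40, the neighbour upstream of Apoe at a distance of 2124 bases, encodes a pore of the outer mitochondrial membrane. It was at 53.1, 49.2 and 49.97 CPM in CD36+ NK against 46.8, 47.4 and 39.5 in CD36- NK, log2FC 0.19 ± 0.105 (SE, edgeR adjusted p = 0.315). Clptm1, on the other side of the cluster, had log2FC -0.13 ± 0.140 (SE, edgeR adjusted p = 0.624). Apoc4, which lies 141 bases from Apoc2, had 5, 1 and 2 counts in CD36+ NK and 1, 0 and 0 in CD36- NK and was not tested. Thus 3 apolipoprotein genes of the cluster were higher DEGs, the apolipoprotein gene between them was at or near 0, and neither flanking gene was a DEG.

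**Figure D3:**
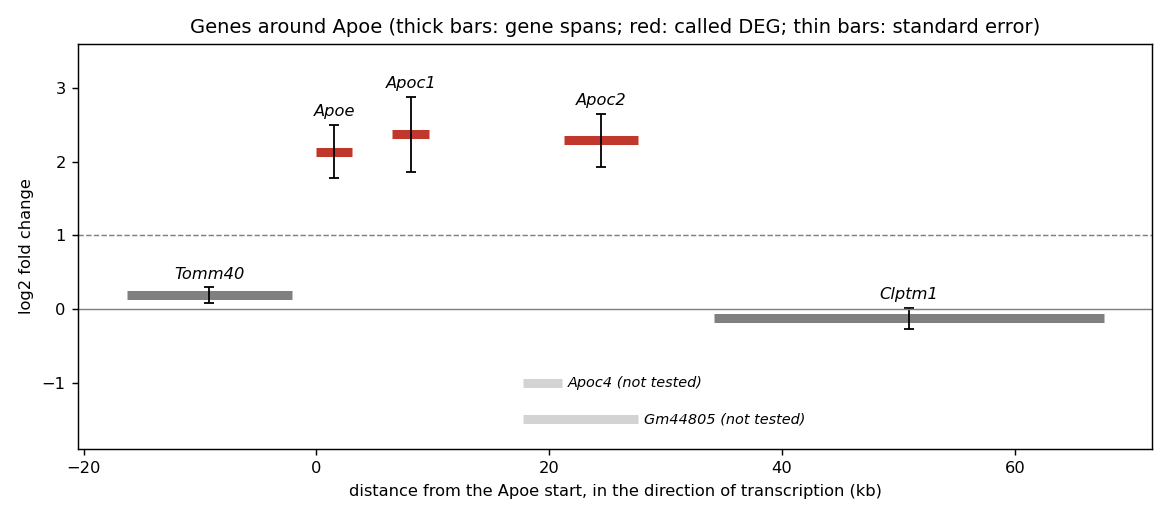
Log2 fold change (vertical axis) of the genes around Apoe against the distance from the Apoe start in kb, in the direction of transcription (horizontal axis). Thick bars are gene spans, red for DEGs, thin bars are 1 standard error and the dashed line marks a fold change of 2. Apoe, Apoc1 and Apoc2 lie at 2.14, 2.37 and 2.29, Tomm40 at 0.19 and Clptm1 at -0.13; Apoc4 and Gm44805 had too few counts to be tested and are drawn below the axis of 0 without a value.

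Pltp (ENSMUSG00000017754, chromosome 2 from 164681438 to 164699631, minus strand) encodes the phospholipid transfer protein, which moves phospholipid onto high-density lipoprotein. It was at 73.1, 113.9 and 110.1 CPM in CD36+ NK against 33.6, 42.4 and 27.6 in CD36- NK. The groups lay well apart, with log2FC 1.52 ± 0.218 (SE, edgeR adjusted p = 0.00793). Of the 9 genes, Pltp alone was called a higher DEG in all 17 alternative fits with a fold change threshold of 2, with adjusted p-values up to 0.0428. Pltp shares 1515 bases with Ctsa, a lysosomal protease gene on the other strand, and strandedness of the libraries is not given in the sources used here, so fragments there cannot be told apart. Ctsa itself had log2FC 0.47 ± 0.139 (SE, edgeR adjusted p = 0.0768).

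Of the receptors, Nr1h3 was higher in every CD36+ NK library and Nr1h2 overlapped between the groups. Nr1h3 (ENSMUSG00000002108, chromosome 2 from 91014406 to 91033179), the form typical of macrophages and liver, had 326, 696 and 1060 counts in CD36+ NK and 70, 235 and 54 in CD36- NK. In CPM this was 29.02, 51.2 and 88.1 beside 5.38, 20.8 and 5.27. Its log2FC of 2.42 ± 0.629 (SE) was the highest among the 9 and so was its standard error, and it missed the threshold (edgeR adjusted p = 0.0538). Blocking on replicate number gave an adjusted p of 0.0672 and blocking on the form of the library name 0.0346 in edgeR. CD36- NK replicate 2 stood above the rest of its group, as it did in macrophage genes, and without it the log2FC was 3.39 (edgeR adjusted p = 0.0118). Without CD36+ NK replicate 1, the lowest of its group, Nr1h3 was a DEG too (log2FC 2.72, edgeR adjusted p = 0.0381), and DESeq2 called it with all libraries (adjusted p = 0.0161). Leaving out any other single library gave log2FC from 1.94 to 2.49 and edgeR adjusted p from 0.123 to 0.161.

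Nr1h2 (ENSMUSG00000060601, chromosome 7 from 44199040 to 44203375), the form that most cell types express, was at 81.4, 103.9 and 73.8 CPM in CD36+ NK against 104.4, 88.6 and 105.0 in CD36- NK. The groups overlapped, with log2FC -0.20 ± 0.145 (SE, edgeR adjusted p = 0.442). Per length, Nr1h2 was above Nr1h3 in CD36- NK, at 10.3 ± 0.814 FPKM beside 2.06 ± 1.79 (SD, n = 3). In CD36+ NK the 2 receptors overlapped, at 8.74 ± 1.65 FPKM for Nr1h2 and 10.6 ± 5.35 for Nr1h3. The ratio of Nr1h3 to Nr1h2 counts was 0.357, 0.493 and 1.19 in CD36+ NK and 0.0515, 0.235 and 0.0502 in CD36- NK, a log2 difference of 2.81 (two-sided exact permutation p = 0.1, below which a test of 3 libraries against 3 cannot go). Since the pair was chosen after its values were seen, the p adds nothing to the fold changes of the receptors.

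The cholesterol transporters, the textbook targets of LXR, had small differences that did not pass the test. Abca1 (ENSMUSG00000015243, chromosome 4 from 53030787 to 53159895), which loads cholesterol onto lipid-poor apolipoprotein A-I, was at 138, 153 and 153 CPM in CD36+ NK against 121, 121 and 137 in CD36- NK. The groups did not overlap, but the nearest libraries were at 138 and 137 CPM, and the log2 fold change of 0.23 did not pass the test (standard error 0.0936, edgeR adjusted p = 0.180). Abcg1 (ENSMUSG00000024030, chromosome 17 from 31276649 to 31336962), which passes cholesterol to mature high-density lipoprotein, was at 124, 154 and 204 CPM in CD36+ NK against 123, 114 and 130 in CD36- NK, with log2FC 0.39 ± 0.177 (SE, edgeR adjusted p = 0.214). Abcg1 in CD36+ NK replicate 1 lay below 1 of the CD36- NK libraries. The ratio of Apoe to Abca1 counts was 7.66, 12.5 and 14.4 in CD36+ NK and 3.03, 4.60 and 1.84 in CD36- NK (two-sided exact permutation p = 0.1, the smallest possible). This pair was chosen after its values were seen, so the p adds nothing to the fold changes of the genes.

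Mylip (ENSMUSG00000038175, chromosome 13 from 45543218 to 45565498) encodes Idol, a ubiquitin ligase that limits the uptake of lipoproteins, and is an LXR target in many cell types. It was at 107, 125 and 104 CPM in CD36+ NK against 155, 171 and 174 in CD36- NK. The groups lay apart, and Mylip passed the test with log2FC -0.57 ± 0.104 (SE, edgeR adjusted p = 0.0182), a level 1.49-fold lower that is under the fold threshold for a DEG. A lower level with an adjusted p below 0.05 at any fold was found for 5.44% of all tested genes. When replicate 3 of CD36+ NK or of CD36- NK was left out, the adjusted p of Mylip was 0.0793 or 0.0581 in edgeR.

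By FPKM the order of mean levels in CD36- NK was Apoe (61.2), Mylip (43.7), Abcg1 (14.8), Abca1 (12.1), Nr1h2 (10.3), Pltp (8.77), Apoc2 (8.28), Nr1h3 (2.06) and Apoc1 (0.746). In CD36+ NK it was Apoe (259.5), Apoc2 (39.4), Mylip (28.6), Pltp (24.3), Abcg1 (18.8), Abca1 (13.8), Nr1h3 (10.6), Nr1h2 (8.74) and Apoc1 (3.78). Apoc2 thus stood near the end of the order in CD36- NK and next to Apoe in CD36+ NK. Many neighbours in these orders did not differ beyond their spread. In CD36- NK the ranges over the 3 libraries overlapped between Apoe and Mylip and between each gene and the next from Nr1h2 to Apoc1. In CD36+ NK they overlapped between Mylip and Pltp, Pltp and Abcg1, Abca1 and Nr1h3, and Nr1h3 and Nr1h2, while Apoe lay above Apoc2, and Apoc2 above Mylip, in every library.

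Since macrophages express many LXR targets, each was set beside macrophage genes in the same libraries. The ratio of Apoe counts to those of Csf1r, the receptor for macrophage colony-stimulating factor, was 0.931, 1.11 and 0.942 in CD36+ NK and 0.893, 0.745 and 1.04 in CD36- NK. These ranges overlapped (two-sided exact permutation p = 0.4), whereas Csf1r itself was at 1138, 1726 and 2342 CPM in CD36+ NK against 410.5, 748.5 and 242 in CD36- NK. The corresponding exact permutation tests gave p = 0.3 for Pltp, p = 0.2 for Apoc2 and p = 0.2 for Nr1h3 over Csf1r, with differences of -0.47, 0.46 and 0.61 on the log2 scale. A p that misses the threshold in 3 libraries against 3 does not show that the ratios were equal.

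The mean of the 10 tested macrophage and Kupffer cell genes, each as log2(CPM + 2), was higher in CD36+ NK by 2.53. Relative to that mean, Apoe differed between the groups by -0.38, Apoc2 by -0.34 and Nr1h3 by -0.22 on the same scale, with overlapping libraries (exact permutation tests, two-sided, p = 0.3, 0.5 and 0.2). Pltp differed by -1.07 and Apoc1 by -1.33 (exact permutation p = 0.1 for each), where the pseudocount understates the change of so low a gene as Apoc1. Both depended on the reference: over Csf1r alone Pltp differed by -0.52 and Apoc1 by -0.78 with overlapping libraries (exact permutation p = 0.3 and 0.2), and with a pseudocount of 0.5 Apoc1 differed by -0.84 (exact permutation p = 0.2). The remaining members lay furthest from the macrophage genes, and Abca1, Abcg1, Nr1h2 and Mylip differed by -2.30, -2.17, -2.73 and -3.09 relative to their mean (exact permutation p = 0.1 for each, the smallest possible). The part of the macrophage genes in the differences of Apoe, Apoc1, Apoc2, Pltp and Nr1h3 was not tested.

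**Figure D4:**
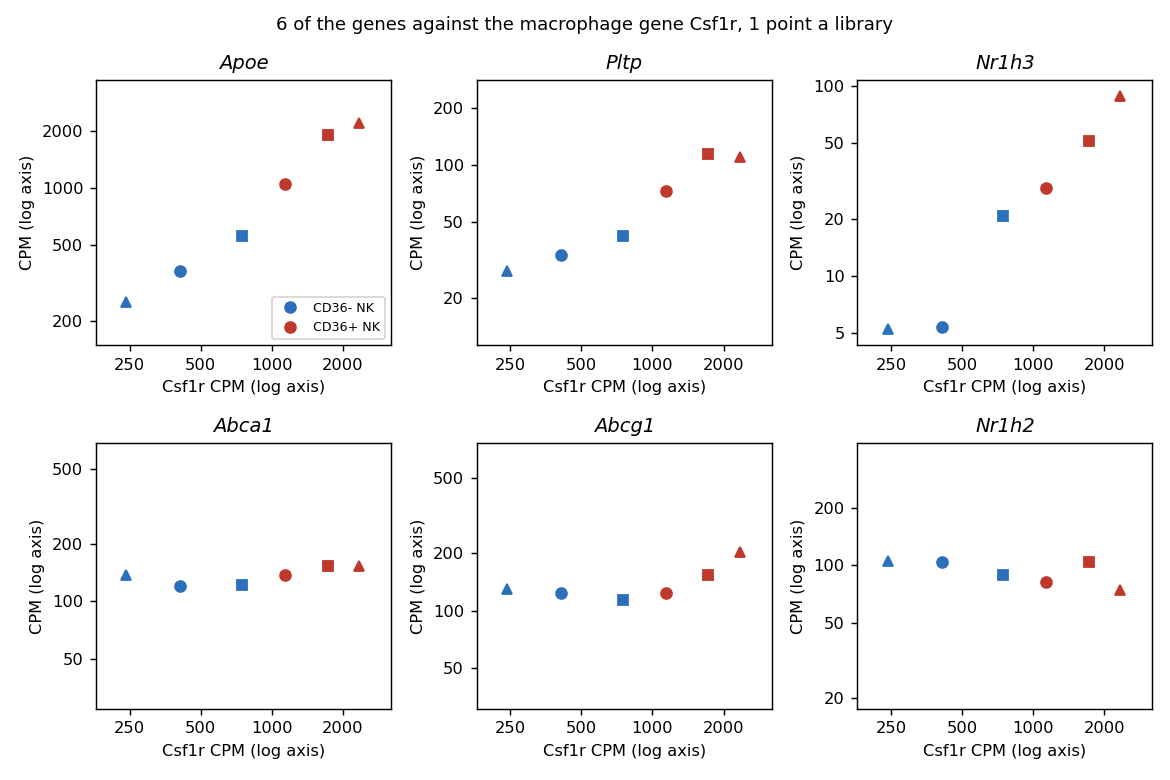
CPM of 6 of the genes (vertical axis, log scale) against CPM of the macrophage gene Csf1r (horizontal axis, log scale) in the same library, with CD36- NK in blue and CD36+ NK in red, and circles, squares and triangles for replicates 1, 2 and 3. Apoe runs from 251 to 2205 CPM as Csf1r runs from 242 to 2342, whereas Abca1 stays between 121 and 153 CPM.

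Among 10008 genes with a mean of at least 10 CPM, the genes nearest to Apoe in profile over the 6 libraries were Ace, Cd300c2, an immune receptor of myeloid cells, and Fcgrt, the neonatal Fc receptor, with root mean square differences of 0.114, 0.143 and 0.158 between centred log2(CPM + 2) values. Ace, which encodes the angiotensin-converting enzyme and belongs to the list of monocyte genes used here, was at 465, 910.4 and 854 CPM in CD36+ NK against 162, 276 and 106 in CD36- NK. It was a higher DEG like Apoe (log2 fold change 2.04, edgeR adjusted p = 0.0227). The nearest to Abca1 were Gmip, a GTPase-activating protein, Birc3, an inhibitor of apoptosis, and Arfgef2, an exchange factor of membrane traffic, with differences of 0.0319, 0.0355 and 0.0396. None of these 3 was a DEG, and their log2 fold changes were 0.18, 0.16 and 0.16. Such likeness is over 6 libraries of 2 groups and describes the profile alone.

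Of the other genes of the LXR pathway and of lipoprotein handling, in 6 lists by role, 3 of 48 tested genes or 6.25% were DEGs in edgeR's quasi-likelihood test, beside 5.96% of all tested genes. DESeq2 called 7 of the 48 (14.6%, beside 7.74% of all tested genes) and edgeR's exact test 10 (20.8%, beside 8.45%). Of 10 receptor partners and cofactors, 9 were tested and none was a DEG in edgeR or DESeq2, with a median log2FC of 0.09. Rxrg was listed at 0 in all libraries. At an unadjusted p below 0.05 the count was 1. Ep300, which encodes a coactivator and had the most counts of the list, was at -0.16 (edgeR adjusted p = 0.539), and Rxra, the usual partner of LXRα, at 0.65 (edgeR adjusted p = 0.202). Of 9 enzymes that make or remove oxysterols and other sterol ligands of LXR, 6 were tested and none was a DEG in edgeR's quasi-likelihood test or DESeq2, with a median of 0.20, while 2 had an unadjusted p below 0.05, beside 26.3% of all tested genes in either direction, and edgeR's exact test called Sult2b1 lower. Cyp27a1, the mitochondrial sterol hydroxylase and the gene of the list with most counts, was at 0.56 (edgeR adjusted p = 0.203), and Ch25h, another cholesterol hydroxylase, had at most 6 counts in a library.

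Of 16 further LXR targets, 12 were tested, with a median log2FC of 0.60 and 9 positive values. None was a DEG in edgeR's quasi-likelihood test, 8 had an unadjusted p below 0.05 beside 26.3% of all tested genes, and DESeq2 called 3 higher and edgeR's exact test 4, beside 4.42% and 4.90% of all tested genes, namely Cd5l, Lpl and Mlxipl in both and Mertk in the second. Among the lipogenic targets were Srebf1, the master regulator of lipogenesis, at 0.03 (edgeR adjusted p = 0.905), Scd1, a fatty acid desaturase, at 0.45 (edgeR adjusted p = 0.0248) and Fasn, the fatty acid synthase, at -0.48 (edgeR adjusted p = 0.0330), the last 2 past the test and under the fold threshold. Cd5l, a secreted macrophage protein, was at 2.90 (edgeR adjusted p = 0.0782) and Mertk, a receptor for apoptotic cells, at 2.81 (edgeR adjusted p = 0.114). Lpl, the lipoprotein lipase, was at 1.51 (edgeR adjusted p = 0.0599). These values were high but scattered, missed the threshold, and were named after they were seen. Abca1 and Abcg1, also targets in macrophages, were at 0.23 and 0.39. Arl4c, a small GTPase linked to cholesterol efflux, was lower at -0.73 (edgeR adjusted p = 0.0134), as Mylip was. Cyp7a1 and Abcg5, targets in hepatocytes and gut, were at 0 in all libraries.

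Of 13 other apolipoproteins, 11 had too few counts to be tested, among them Apoa1 with 24 and Apob with 3 counts over all libraries, and the remaining Apof and Clu were no DEGs in edgeR's quasi-likelihood test or DESeq2, whereas edgeR's exact test called Apof higher (log2FC 1.38 and 1.14, edgeR adjusted p = 0.0744 and 0.194). Apoa1 and Apob, made mainly by hepatocytes, were thus at or near 0, like the hepatocyte markers. Of 8 apolipoprotein receptors 7 were tested and 1, Sort1, was a higher DEG. Sort1 encodes sortilin, a sorting receptor that binds lipoproteins and lipoprotein lipase, and was at 106, 127 and 187 CPM in CD36+ NK against 47.97, 65.5 and 26.8 in CD36- NK (log2FC 1.58 ± 0.340 (SE), edgeR adjusted p = 0.0313). Lrp1, the remnant receptor that binds apolipoprotein E and the gene of the list with most counts, was at 1.34 (edgeR adjusted p = 0.0570), without overlap between the groups. DESeq2 called Sort1 and Lrp1, and without CD36+ NK replicate 2 neither was a DEG in edgeR.

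Of 13 genes of sterol handling and lipoprotein remodelling 12 were tested, with a median log2 fold change of -0.13, and 1 was a DEG in each direction. Lipa, the lysosomal acid lipase that frees cholesterol from its esters, was at 181.5 ± 51.7 CPM in CD36+ NK against 72.8 ± 20.3 in CD36- NK (SD, n = 3), log2FC 1.32 ± 0.261 (SE, edgeR adjusted p = 0.0240). Osbpl5, which encodes an oxysterol-binding protein that moves lipids between membranes, was at 37.6 ± 4.50 and 91.9 ± 6.05 CPM, log2FC -1.29 ± 0.115 (SE, edgeR adjusted p = 0.00155). Without CD36+ NK replicate 2 Osbpl5 was still a DEG and Lipa was not. Npc2, which passes cholesterol out of the lysosome and had the most counts of the list, was at 0.02 (edgeR adjusted p = 0.949). Abca2 and Tspo passed the test below 0 but under the fold threshold, at -0.88 and -0.74 (edgeR adjusted p = 0.00670 and 0.0330).

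**Figure D5:**
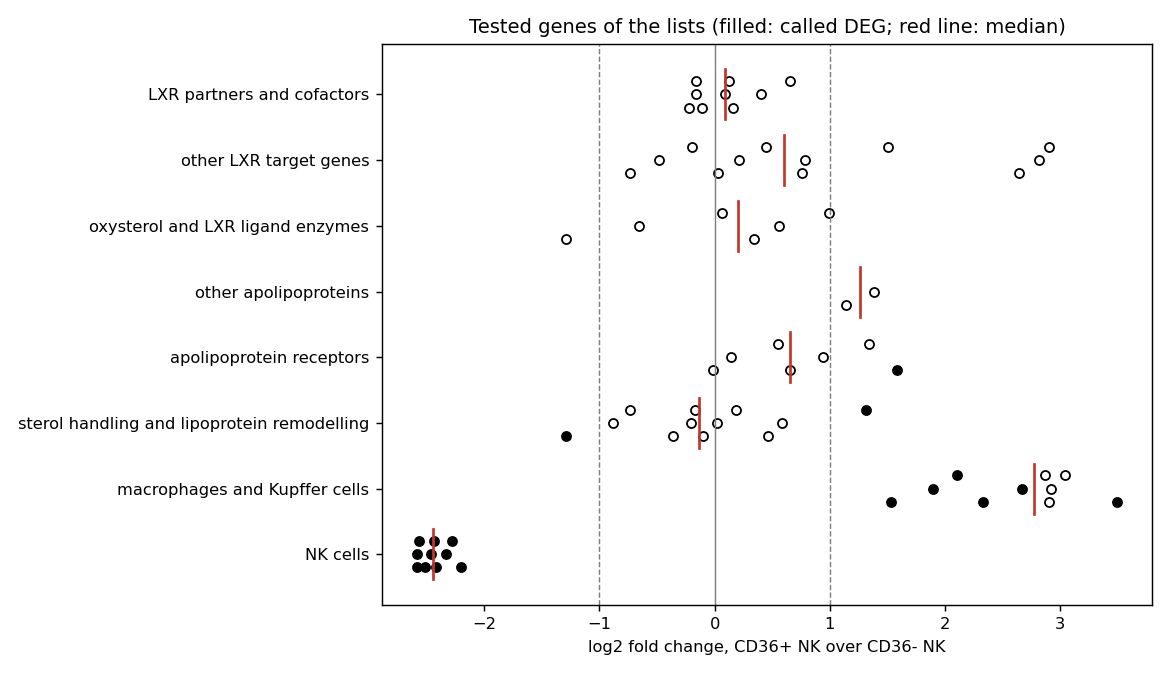
Log2 fold change (CD36+ NK over CD36- NK, horizontal axis) of the tested genes of the 6 lists of LXR and lipoprotein genes and of the macrophage and NK cell markers, 1 point a gene, filled where a DEG, with the list's median as a red line and dashed lines at a fold change of 2. The medians of the 6 lists run from -0.13 to 1.26, that of the macrophage markers is 2.77 and that of the NK cell markers -2.45.

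The other marker lists place these values. Of the monocyte genes, 4 of 9 were higher DEGs and 1 was a lower DEG, with a median log2 fold change of 0.00; Cd300e, Treml4, Ace and Cd14 rose by 4.11, 2.84, 2.04 and 1.70, and Ccr2 fell by 1.35 on the log2 scale. DESeq2 and edgeR's exact test each called 3 lower, with F13a1 and Ly6c2 added to Ccr2, and without CD36+ NK replicate 1 edgeR's quasi-likelihood test called 4, with Chil3 too. Without CD36+ NK replicate 2, Cd14 and Ccr2 were the DEGs of this list. Of the dendritic cell genes, 2 of 7 were higher DEGs and 1 was a lower DEG (median 0.26); without CD36+ NK replicate 2 the higher ones numbered 1. B cell genes summed to 3800 to 4221 CPM in the CD36+ NK libraries against 2517 to 2930 in CD36- NK. None of the 5 was a DEG in edgeR or DESeq2 (median 0.51, unadjusted p below 0.05 in edgeR for all 5). At an edgeR adjusted p below 0.05 and any fold, 4 of the 5 were higher, beside 5.07% of all tested genes. Of the T cell genes, 2 of 5 were higher DEGs (median 2.34), Cd4 and Cd8a. Without CD36+ NK replicate 1 the other 3, Cd3d, Cd3e and Cd3g, were lower DEGs. Of the erythroid genes, 5 of 7 were higher DEGs (median 1.86), of the 2 tested stellate cell genes 1 (median 1.39), and of the 3 tested sinusoidal endothelial genes none in edgeR's quasi-likelihood test but 1, Stab2, in DESeq2 and edgeR's exact test (median 1.20, 1 with an unadjusted p below 0.05). Without CD36+ NK replicate 2 the erythroid count was 2 and the stellate count 0. No hepatocyte gene had enough counts to be tested.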

How the data were processed

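mRNA libraries of 6 samples, 3 of each group, were made with the VAHTS Universal V6 kit. The authors filtered reads with Seqtk, mapped them with HISAT2 2.0.4 and used StringTie to count the fragments of each gene. They deposited raw counts and FPKM values side by side. Gene by gene, the deposited FPKM was proportional to counts over library total across the 6 libraries, within 1% for 100% of 7439 genes. These genes had over 200 counts in every library. The gene lengths behind the FPKM were not checked. FPKM served only to compare levels between genes. The submitters' processing notes name a rat genome build (mRatBN7.2), whereas the gene identifiers are of mouse. The build of the table's coordinates is therefore not known, and they were not mixed with the GRCm38.p6 promoters. The broken lines of 2 genes were rejoined. Library names use the sign of CD36 differently from sample titles; titles were followed, and each CD36+ title had more Cd36 counts than any CD36- title.

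The tests on counts used edgeR 4.0.16 (R 4.3.3): filterByExpr with a minimum count of 10, TMM scaling, the quasi-likelihood test between the groups, and Benjamini-Hochberg adjustment over 14761 genes. DEGs passed an adjusted p of 0.05 and a 2-fold change, as the study set them. The biological coefficient of variation was 20.3%. The SE of a log2FC is its size over the root of the F statistic. On simulated counts of these 14761 genes, drawn with independent noise for each gene, the script recovered most but not all known changes. Exact permutation tests used scipy 1.17.1 with a pseudocount of 2 CPM. Replicates differed by more than sampling noise (chi-square per degree of freedom 13.5 to 26.5). At library totals of 10292480 counts or more, Apoc1 had the fewest counts of the 9 genes and Nr1h3 the highest SE.

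The members and lists were chosen with earlier results of these data known. Named genes are the members, Cd36, of each list the DEGs of lowest p (at most 3 in each direction) and the most abundant gene, the nearest profiles of Apoe and Abca1, and neighbours of members. Some list genes that this rule names are not reported here. Other genes named, and the count ratios, were chosen after their values were seen. As alternatives, DESeq2 1.42.0, the exact test of edgeR, other scalings, filters and fold thresholds, blocks, and fits without each library were run.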

Additional observations from a re-analysis of the deposited data

How the results depend on the processing

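No member changed direction in any fit. Pltp was called in all 17 alternatives with a fold change threshold of 2, Apoc2 missed the call in 1, Apoe in 3 and Apoc1 in 6 of 16 (it was not tested with at least 10 counts required in every library), and Nr1h3 gained it in 5, DESeq2 (adjusted p = 0.0161) and edgeR's exact test (0.00243) among them. The number of DEGs was 880 (440 higher) and lay between 417 (without CD36- NK replicate 1) and 1160 (without CD36- NK replicate 2) when a library was left out. It was 418, 451 and 431 without CD36+ NK replicate 2, CD36+ NK replicate 3 and CD36- NK replicate 3. It was 1552 without a fold threshold and 376 with a fold change above 4. The members called higher numbered 2 to 5 with a library left out, and without a fold threshold 1 was called lower, Mylip. Both replicate 1 libraries have names of another form. Without them, a choice made after seeing the data, 433 genes (106 higher) and 1 member, Pltp, were called. Over Csf1r alone instead of the macrophage mean, the differences of Nr1h3, Apoe and Apoc2 became positive, at 0.33, 0.16 and 0.20, with overlapping libraries. The replicate number as a block gave 560 DEGs (221 higher) and 3 higher members, without Apoc1, and changed no other member's call. The deviations of same-numbered libraries correlated at 0.37, 0.09 and -0.09 across genes. With no reference for these values, they do not settle whether the numbers pair the samples. The cause of these changes was not tested. With 3 libraries a group, differences as small as those of Abca1 and Abcg1 were not detectable.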
